A study of Homo sapiens with 36 samples.

Results

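The genes of fatty acid and triglyceride synthesis were followed across 9 hormone conditions of ZR-75-1, an estrogen-receptor-positive line derived from a human breast carcinoma. The members are 35 genes named in a fixed list of this pathway and its regulators. Of these, 34 had a probe with a gene name and 30 were tested, out of 9902 genes tested in all. Where a gene had several probes, the probe with the highest mean over all arrays stood for it. ACSL3 had no named probe. FADS3, ELOVL7 and ACSL5 were detected on 0 arrays and ELOVL2 on 2 arrays, and none of these 4 reached the 4 arrays required for a test.

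Fatty acid synthesis begins in the cytosol with acetyl-CoA, which ACLY makes from citrate and which ACSS2 makes from acetate. Acetyl-CoA carboxylase turns it into malonyl-CoA, FASN builds palmitate from both, and elongases and desaturases then lengthen the chain and place its double bonds. Acyl-CoA synthetases activate the products, and GPAM, the AGPAT enzymes, the lipins and the DGAT enzymes attach them to glycerol to form triglyceride. The mammary epithelium is known for this pathway because it makes milk fat, and breast cancer cells are known to carry high levels of FASN.

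Each of 36 samples, 4 in each group, was read on its own Illumina HumanWG-6 v3 expression array. The groups were vehicle (ethanol at 2 ppm), estradiol (E2), progesterone (P4), medroxyprogesterone acetate (MPA), dihydrotestosterone (DHT), cotreatment with E2 and P4, MPA or DHT (E2+P4, E2+MPA, E2+DHT), and P4 with a longer exposure to E2 (E2pre+P4). All groups shared cells from a commercial stock, a phenol red-free medium with charcoal-stripped serum, hormones at 10 nM and a treatment of 16 h. E2 lasted 72 h in the E2pre+P4 group. No group received E2 alone for that time, so the length of the E2 exposure and the added P4 cannot be told apart in it, and the labels and the methods of the study differ on whether the P4 fell within or after the 72 h. The labels do not say that replicates were separate cultures, so a p-value here reflects no more than the spread among the 4 samples of a group, which may be technical.

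The number of detected probes ran from 12191 to 14806 per array (median 13403.5), and at the median gene a log2 difference between groups had a 95% interval of 0.400 to each side. The 9 luminal epithelial markers with a probe were detected on all 36 arrays. Of 6 adipocyte markers, ADIPOQ, FABP4, PLIN1, CIDEC and LPL were detected on 0 arrays and LEP on 27. Of the basal markers, KRT5, KRT14 and MYLK were detected on 0 arrays and ACTA2 on 36. Of 6 fibroblast markers 5 were detected on 0 arrays, and COL1A1 on 36; of 5 leukocyte markers PTPRC and CD3E were detected on 0, and CD68 on 35. Signals are given as log2 values after background correction and quantile normalisation, and a gene is called changed at an adjusted p under 0.05 (limma, Benjamini-Hochberg over the 9902 genes).

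A pair of arrays went against their labels. Among the other arrays of their groups, 69 genes differed between E2 and E2pre+P4, and for 68 of these E2 replicate 2 lay nearer to the E2pre+P4 arrays, while for 68 E2pre+P4 replicate 2 lay nearer to the E2 arrays. Only 2 of the 69 genes are members. The 2 arrays are called doubted arrays here, and calls in which those groups take part are given with all 36 arrays and with the remaining 34.

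A second pattern followed the order of the arrays in the deposited table. ELOVL5, an elongase of polyunsaturated fatty acids, lay between 6.62 and 10.91 on the 12 arrays at positions 13 to 24 and between 10.84 and 12.33 on 23 of the other 24 arrays. Vehicle replicate 1, at position 6, stood at 8.18. ELOVL6, which lengthens palmitate, ME1, which supplies NADPH, HSD17B12, a reductase of the elongation cycle, and ACSL1, an acyl-CoA synthetase, were low on the same arrays. After group means were removed, their correlations with ELOVL5 over the 36 arrays, which share their normalisation, were 0.94, 0.88, 0.78 and 0.83. TECR and DGAT1 ran the opposite way, with correlations of -0.82 and -0.80. Positions 13 to 24 held 3 arrays each of E2 and DHT, 2 of E2+MPA, 1 each of vehicle, E2+P4, E2+DHT and E2pre+P4, and 0 of P4 and MPA. The files name no chip or date for these positions, and what set them apart was not tested.

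**Figure D1:**
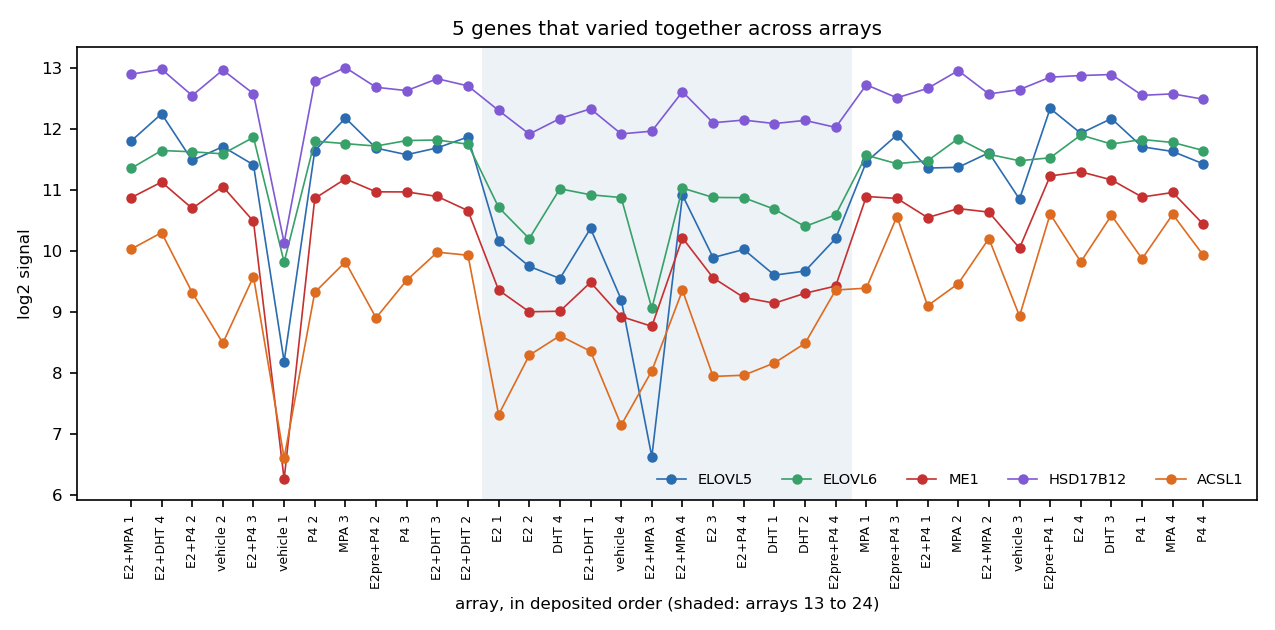
Log2 signal (vertical axis) of ELOVL5, ELOVL6, ME1, HSD17B12 and ACSL1 on each of the 36 arrays in deposited order (horizontal axis, labelled by group and replicate), with positions 13 to 24 shaded. The 5 genes lie low on most shaded arrays and on vehicle replicate 1, where ELOVL5 stood at 8.18 and ME1 at 6.25.

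Of these 5 genes, ACSL1 alone was called against vehicle, in 1 comparison, and differences that were not called ran from -0.18 for ELOVL6 with E2+MPA to 2.03 for ACSL1 with MPA. ME1 had a mean 1.72 higher with P4 and ACSL1 1.87 higher with P4 on the log2 scale, with adjusted p-values of 0.138 and 0.118. The vehicle arrays of ME1 themselves ran from 6.25 to 11.05, a range of 4.80. The second probe of ELOVL6 gave -0.37 with MPA against 0.80 for the probe used, and the second probe of HSD17B12 gave -0.17 against 0.90.

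Of the 30 tested members, 8 were called in at least 1 of 24 comparisons, namely THRSP, ACACA, ACACB, AACS, FADS1, LPIN2, MID1IP1 and ACSL1. The share of all genes called in at least 1 of the 24 was not counted, so this number is not a result about the members. Against vehicle, 0 members were called with E2 (1.37% of all genes tested were), 0 with P4 (0% of all genes), 1 with MPA (1.96%), 2 with DHT (2.4%), 1 with E2+P4 (1.92%), 3 with E2+MPA (3.87%), 5 with E2+DHT (4.81%) and 5 with E2pre+P4 (6.18%). With the 34 arrays the counts in the same order were 0 (1.29% of all genes), 0 (0.0808%), 1 (2.35%), 3 (2.58%), 2 (2.19%), 4 (4.27%), 7 (5.18%) and 6 (5.5%). These 8 comparisons share the vehicle arrays, and the calls of all genes moved with the vehicle array left out. Without vehicle replicate 2 the member count was 4 with P4 (1218 of all genes called), 6 with MPA (1807), 3 with DHT (249), 1 with E2+P4 (332), 2 with E2+MPA (420), 10 with E2+DHT (1115) and 7 with E2pre+P4 (1440). Without vehicle replicate 1 it was 0 with P4 (0 of all genes), 1 with MPA (67), 2 with DHT (129), 0 with E2+P4 (119), 4 with E2+MPA (236), 3 with E2+DHT (301) and 3 with E2pre+P4 (282). At an unadjusted p under 0.05, the share of members that passed was 10% with E2 (10.5% of all genes), 16.7% with P4 (26.3%), 33.3% with MPA (28.3%), 16.7% with DHT (14%), 20% with E2+P4 (15.2%), 36.7% with E2+MPA (18.3%), 53.3% with E2+DHT (21.9%) and 30% with E2pre+P4 (24.8%). The share of members was furthest above that of all genes with E2+DHT, and next with E2+MPA. It lay close to the share of all genes with E2, MPA, DHT, E2+P4 and E2pre+P4, and below it with P4. Some members moved together with the array order, so they are not independent counts. The median log2 change over the members lay between -0.16 with P4 and 0.08 with E2+MPA, where the median over all genes was -0.12 and -0.03. In the remaining treatments the member median was -0.01 with E2, 0.03 with MPA, 0.03 with DHT, -0.08 with E2+P4, 0.03 with E2+DHT and -0.09 with E2pre+P4, beside -0.01, -0.12, -0.03, -0.03, -0.07 and -0.06 over all genes. These medians lay within 0.16 of 0, and the called changes lay in 8 genes. The lowest adjusted p of the members never called with all arrays ran from 0.0645 for MLXIPL to 0.528 for FASN.

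**Figure D2:**
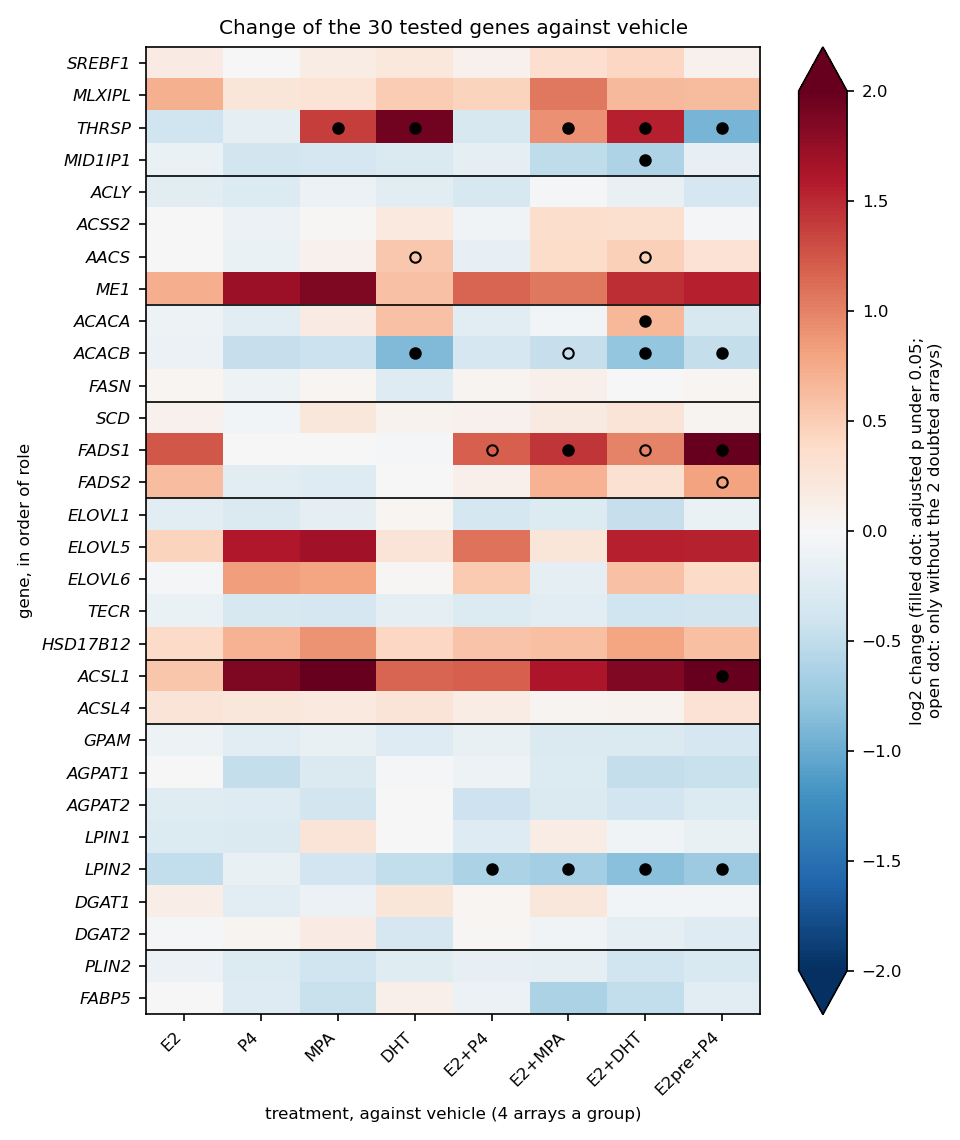
Log2 change against vehicle (colour, which stops at 2 in each direction) of the 30 tested genes (rows, in blocks by role) in the 8 treatments (columns, 4 arrays a group). Filled dots mark an adjusted p under 0.05 with all 36 arrays and open dots one reached only without the 2 doubted arrays; THRSP carries 5 filled dots and LPIN2 4, while FASN, SCD, ACLY and SREBF1 carry 0.

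FASN, SCD, ACLY and SREBF1 were not called in any of the 24 comparisons. FASN, the fatty acid synthase, had group means between 14.40 ± 0.39 (SD, n = 4) with DHT and 14.76 ± 0.20 with E2+MPA, beside 14.65 ± 0.16 in vehicle, and its lowest adjusted p was 0.528. SCD, the desaturase that makes oleate, had means between 14.87 ± 0.37 with P4 and 15.17 ± 0.05 with E2+DHT, beside 14.91 ± 0.12 in vehicle, with a lowest adjusted p of 0.206. ACLY lay between 13.12 ± 0.11 with E2pre+P4 and 13.46 ± 0.28 in vehicle, with a lowest adjusted p of 0.132. Against vehicle, its second probe gave 0.18 with E2+MPA and 0.23 with E2+DHT, where the probe used gave -0.04 and -0.15. Both probes lay below 0 with P4, MPA, DHT, E2+P4 and E2pre+P4. SREBF1, which encodes the transcription factor SREBP-1, lay between 11.35 ± 0.19 in vehicle and 11.77 ± 0.18 with E2+DHT, with a lowest adjusted p of 0.144. Its second probe gave -0.39 with P4 against vehicle, where the probe used gave 0.01. The signs of its probes also differed with E2, MPA and E2+P4, and were the same in the other treatments. A p that misses the threshold does not show that these genes were the same in all groups: the change of FASN with DHT against vehicle was -0.25, with a 95% interval from -0.70 to 0.19.

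The regulator THRSP was called in more comparisons than any other member with all arrays, 11 of the 24. It encodes a small nuclear and cytosolic protein, also called Spot 14, which is known to promote fatty acid synthesis in liver, fat and mammary gland. Its log2 signal was 11.13, 10.89, 10.75 and 10.99 on the vehicle arrays. It stood at 12.40, 12.51, 12.14 and 12.23 with MPA and at 12.88, 12.91, 12.77 and 12.89 with DHT. Every MPA and DHT array lay above every vehicle array, and every DHT array above every MPA array. With P4 the values of 10.998, 10.58, 10.59 and 10.91 overlapped those of vehicle. The change was 1.38 ± 0.22 (SE) with MPA, a 2.60-fold rise with an adjusted p of 0.000226, and 1.92 ± 0.22 with DHT, a 3.79-fold rise with an adjusted p of 3.5e-07. With P4 it was -0.17 ± 0.22 (adjusted p = 0.581). These calls were kept when the 12 arrays at positions 13 to 24 were set apart as a block. The DHT change was 1.91 within those positions (3 DHT arrays against 1 of vehicle) and 1.84 within the others (1 against 3).

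Cotreatment with E2 left the same order. THRSP stood at 12.23, 12.04, 11.66 and 11.49 with E2+MPA, at 12.71, 12.49, 12.58 and 12.19 with E2+DHT, and at 10.30, 10.47, 10.98 and 10.75 with E2+P4. On the E2 arrays it was 10.82, 9.69, 10.85 and 10.85, of which 9.69 belongs to the doubted replicate 2. Against E2, the change was 1.30 ± 0.22 with MPA (adjusted p = 0.000772) and 1.94 ± 0.22 with DHT (adjusted p = 3.8e-07), in comparisons where 0.889% and 0.818% of all genes were called. Without the doubted arrays these changes were 1.02 and 1.66, where 1.52% and 0.879% of all genes were called. With all arrays, the interaction of E2 with MPA was -0.07 with a 95% interval from -0.70 to 0.55, and that of E2 with DHT was 0.02 with an interval from -0.60 to 0.64. On the 34 arrays they were -0.36 and -0.27, and neither was called (0.0202% and 0% of all genes). A difference between the responses with and without E2 was thus not detectable, within limits as wide as these intervals. No member was called in any of the 3 interactions of E2 with P4, MPA and DHT, where 0.0101%, 0% and 0% of all genes were called. At an unadjusted p under 0.05, 0 members passed beside 3.66%, 14.6% and 4.68% of all genes, and without the doubted arrays 2 members passed for E2 and MPA (6.67% beside 17.7%).

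The gene start of THRSP is shown because this gene carried the clearest response. The window spans 250 bases before the gene start and 50 from it on, at chr11:78063611-78063910 on the plus strand of GRCh38.p14 (RefSeq). Capitals mark CCAAT boxes, here read as ATTGG on the strand shown.
THRSP: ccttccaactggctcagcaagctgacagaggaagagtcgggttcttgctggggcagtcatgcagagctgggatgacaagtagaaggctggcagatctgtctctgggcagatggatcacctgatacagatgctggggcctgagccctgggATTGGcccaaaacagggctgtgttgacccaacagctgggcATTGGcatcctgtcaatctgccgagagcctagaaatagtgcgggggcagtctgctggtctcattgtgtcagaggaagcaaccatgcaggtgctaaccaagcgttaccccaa
This window held 2 CCAAT boxes, a motif found in 34.6% of all 35116 windows of this length. It also held a match to the estrogen receptor half-site GGTCA, found in 37.4% of all windows. It held no match to the steroid receptor half-site TGTTCT on either strand, which 14.8% of all windows hold and which lay in windows of ACSL1, ACSL5 and AGPAT1 among the members. Over the 30 members with a window, 2 of 49 windows (4.08%, beside 1.13% of all windows) held the sterol regulatory element TCACNCCAC, namely those of ACSL1 and MID1IP1. The palindromic steroid and estrogen response elements lay in 0 of the 49 windows. The motifs were searched on both strands, and their letters describe the windows only.

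THRSP was lower with E2pre+P4 than in vehicle. Its 4 arrays stood at 9.69, 10.63, 9.89 and 9.84, of which 10.63 belongs to the doubted replicate 2. All 4 lay below the lowest vehicle array. The change was -0.93 ± 0.22 with an adjusted p of 0.00654, and -1.14 ± 0.17 with an adjusted p of 1.7e-05 without the doubted arrays. Against E2+P4 it was -0.61 ± 0.22 (adjusted p = 0.779) with all arrays and -0.82 ± 0.17 (adjusted p = 0.00435) without the 2. The call against E2+P4 therefore depended on the doubted arrays, in a comparison where 0.0101% of all genes were called with all arrays and 1.27% without the 2.

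**Figure D3:**
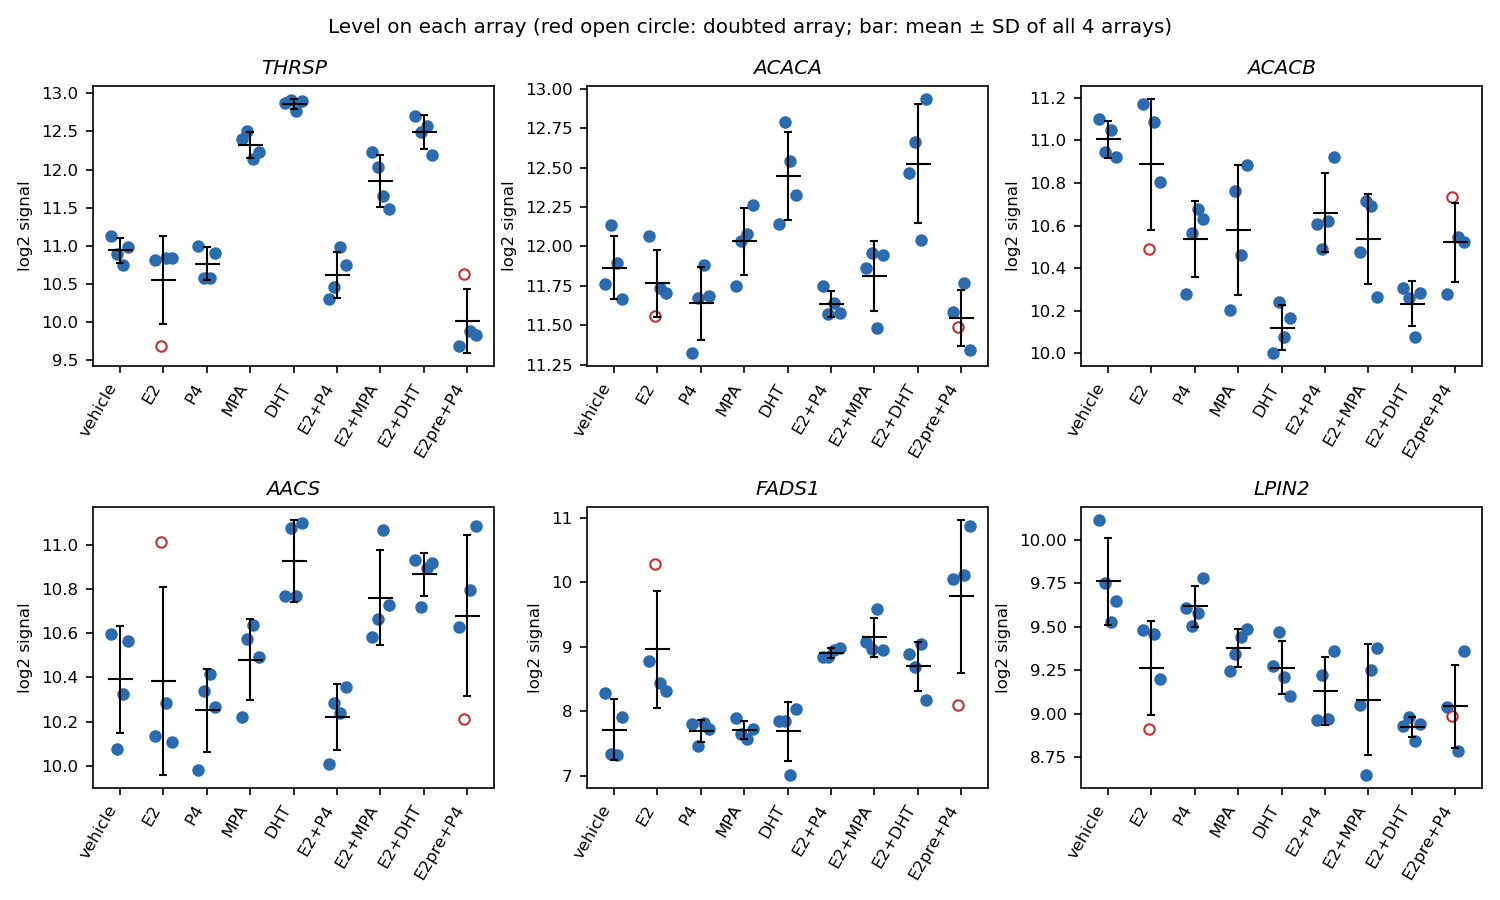
Log2 signal (vertical axis) of THRSP, ACACA, ACACB, AACS, FADS1 and LPIN2 on each array of the 9 groups (horizontal axis), with bars for the mean and SD of all 4 arrays and red open circles for the 2 doubted arrays. THRSP is highest with DHT (12.77 to 12.91), ACACB lowest with DHT (10.00 to 10.24), and FADS1 at 8.10 or higher on all arrays that received E2.

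MID1IP1, a relative of THRSP that is known to bind acetyl-CoA carboxylase and promote its polymerisation, went the other way. It stood at 9.66, 9.61, 9.24 and 9.23 in vehicle and at 8.74, 8.99, 8.94 and 8.59 with E2+DHT, without overlap. The change was -0.61 ± 0.15 (adjusted p = 0.0123). Its second probe changed by -0.14, and the call was lost when the probes were averaged and when vehicle replicate 1 or E2+DHT replicate 4 was left out. MLXIPL, which encodes the carbohydrate-responsive factor ChREBP, was detected on 32 arrays and was called in 0 comparisons, with group means from 7.22 ± 0.47 in vehicle to 8.28 ± 0.52 with E2+MPA. With positions 13 to 24 as a block its change with E2+MPA was called (0.91 ± 0.28, adjusted p = 0.0389), as was that of MID1IP1 (-0.51 ± 0.15, adjusted p = 0.0358).

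The acetyl-CoA carboxylases changed in opposite directions with E2+DHT. ACACA encodes the cytosolic form, which makes malonyl-CoA for chain building, and ACACB the form at the mitochondrial membrane, whose malonyl-CoA is known to restrain the entry of fatty acids for oxidation. ACACB stood at 11.10, 10.95, 11.05 and 10.92 in vehicle and at 10.00, 10.24, 10.08 and 10.16 with DHT. With E2+DHT it was 10.31, 10.26, 10.08 and 10.29. Neither group overlapped vehicle. The change was -0.88 ± 0.15 with DHT (adjusted p = 0.000337) and -0.77 ± 0.15 with E2+DHT (adjusted p = 0.000826). Within positions 13 to 24 the DHT change was -0.79 (3 DHT arrays against 1 of vehicle), and within the other positions -0.96 (1 against 3). Both calls held under all 19 alternatives tried for each.

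P4 and MPA alone gave ACACB values below vehicle that did not pass the test. Its values with P4 were 10.28, 10.57, 10.68 and 10.63, and with MPA 10.21, 10.76, 10.46 and 10.88. All lay below the lowest vehicle array, and the changes of -0.47 ± 0.15 and -0.43 ± 0.15 were not called (adjusted p = 0.118 and 0.106). With E2+MPA the change of -0.47 was not called with all arrays (adjusted p = 0.0667). It was called without the doubted arrays (adjusted p = 0.0442) and, at -0.48 ± 0.15, with positions 13 to 24 as a block (adjusted p = 0.0389). With E2pre+P4 it was -0.48 ± 0.15 (adjusted p = 0.0449), and -0.55 ± 0.15 without the doubted arrays (adjusted p = 0.0195), and 11 of 19 alternatives lost that call. Among them were the fits without vehicle replicate 1, 3 or 4 and without E2pre+P4 replicate 1, 3 or 4. Against E2, the change with E2+DHT was -0.65 ± 0.15 (adjusted p = 0.0169), a call lost with sets of 6 arrays as a block (adjusted p = 0.0859) and without E2 replicate 1 or 3 or E2+DHT replicate 3. On the 34 arrays it was -0.79 ± 0.15 (adjusted p = 0.00224).

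ACACA rose with E2+DHT. It stood at 11.76, 12.13, 11.90 and 11.67 in vehicle, at 12.14, 12.79, 12.54 and 12.33 with DHT and at 12.47, 12.66, 12.04 and 12.94 with E2+DHT. All DHT arrays lay above vehicle, although the lowest, 12.14, did so only narrowly, and 1 E2+DHT array fell within the vehicle range. The change was 0.58 ± 0.17 with DHT, which missed the threshold (adjusted p = 0.0586) and passed it with positions 13 to 24 as a block (0.65 ± 0.17, adjusted p = 0.0189), and 0.66 ± 0.17 with E2+DHT, which passed it without a block (adjusted p = 0.0150). Leaving out vehicle replicate 1 or 4, or E2+DHT replicate 2 or 4, ended the E2+DHT call. Against P4, DHT gave 0.81 ± 0.17 (adjusted p = 0.00508), and against E2+P4, E2+DHT gave 0.89 ± 0.17 (adjusted p = 0.00285). Against E2, the change with E2+DHT was 0.76 ± 0.17 (adjusted p = 0.0136), and without the doubted arrays the adjusted p was 0.0747. That call was also lost with sets of 6 arrays as a block and without E2 replicate 2 or 3 or E2+DHT replicate 2 or 4.

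AACS, which activates acetoacetate in the cytosol as a further source of acyl units, changed in the direction of ACACA with DHT and E2+DHT. Its values were 10.60, 10.07, 10.33 and 10.57 in vehicle, 10.77, 11.07, 10.77 and 11.10 with DHT, and 10.93, 10.72, 10.89 and 10.92 with E2+DHT. With E2pre+P4 AACS was 10.63, 10.21, 10.79 and 11.09, where 10.21 is the doubted array, and with E2+P4 it ran from 10.01 to 10.355. ACACA did not share this, at 11.59, 11.49, 11.77 and 11.34 with E2pre+P4. With P4 AACS stood at 9.98, 10.34, 10.41 and 10.27. DHT against P4 gave 0.68 ± 0.18 (adjusted p = 0.0458), a call lost in 11 of 19 alternatives, among them those without DHT replicate 1, 2 or 4 and without any 1 of the P4 replicates. Of the E2 arrays, the doubted replicate 2 stood at 11.01 and the others between 10.11 and 10.28. Without the doubted arrays AACS was called with DHT against vehicle (0.54 ± 0.14, adjusted p = 0.0278), with E2+DHT against vehicle (0.47 ± 0.14, adjusted p = 0.0390), and with E2+DHT against E2 (0.69 ± 0.15, adjusted p = 0.0119). With all arrays and sets of 6 consecutive arrays as a block, the adjusted p against vehicle was 0.210 with DHT and 0.107 with E2+DHT. With positions 13 to 24 as a block AACS was called with E2+DHT against vehicle (0.47 ± 0.16, adjusted p = 0.0486) and against E2+P4 (0.64 ± 0.16, adjusted p = 0.0325), and not with DHT against vehicle (adjusted p = 0.104).

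P4, MPA and DHT were given at the same dose and for the same time, which allows a direct comparison of these related steroids. MPA is P4 with an added acetoxy and an added methyl group, and DHT carries a hydroxyl group in place of the acetyl side chain of P4 and lacks its ring double bond. The 6 pairs, 3 without and 3 with E2, were compared over all 9902 genes. MPA differed from P4 in THRSP alone among the members, by 1.55 ± 0.22 (adjusted p = 5.5e-05), where 0.374% of all genes were called. DHT differed from P4 in THRSP (2.10 ± 0.22, adjusted p = 7.1e-08), ACACA and AACS, where 1.42% of all genes were called. No member was called between DHT and MPA, where 0.303% of all genes were called and 6 members passed at an unadjusted p under 0.05, which is 20% of the members beside 11.7% of all genes. The difference of THRSP there was 0.54 with a 95% interval from 0.10 to 0.98, and that of ACACB was -0.46 with an interval from -0.76 to -0.16.

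With E2 present the pairs gave a like picture. E2+MPA differed from E2+P4 in THRSP, by 1.23 ± 0.22 (0.465% of all genes called), and E2+DHT differed from E2+P4 in THRSP, by 1.87 ± 0.22, and in ACACA (0.747%). Between E2+DHT and E2+MPA 0 members were called with all arrays (0.293% of all genes) and 2 without the doubted arrays (0.626%). These were ACACA, 0.71 ± 0.17 (adjusted p = 0.0419), and THRSP, 0.64 ± 0.15 (adjusted p = 0.0426). No doubted array belongs to these groups, and the differences were the same in both fits. For THRSP the difference was 1.137 within the array positions set apart as a block above (1 E2+DHT array against 2 of E2+MPA). Within the other positions it was 0.285 (3 against 2). For ACACA these differences were 0.751 and 0.633. With those positions as a block and all arrays, neither gene was called (adjusted p = 0.0671 for ACACA and 0.453 for THRSP). Without the doubted arrays AACS also differed from E2+P4, by 0.54 ± 0.14 with E2+MPA (1.11% of all genes called) and by 0.64 ± 0.14 with E2+DHT (0.909%). Without those arrays 0.555% of all genes were called in MPA against P4, 1.7% in DHT against P4 and 0.394% in DHT against MPA, and the member counts of 1, 3 and 0 were the same. P4 added to E2 called 0 members (0% of all genes, and 0.0808% without the doubted arrays), and 0 members passed at an unadjusted p under 0.05.

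**Figure D4:**
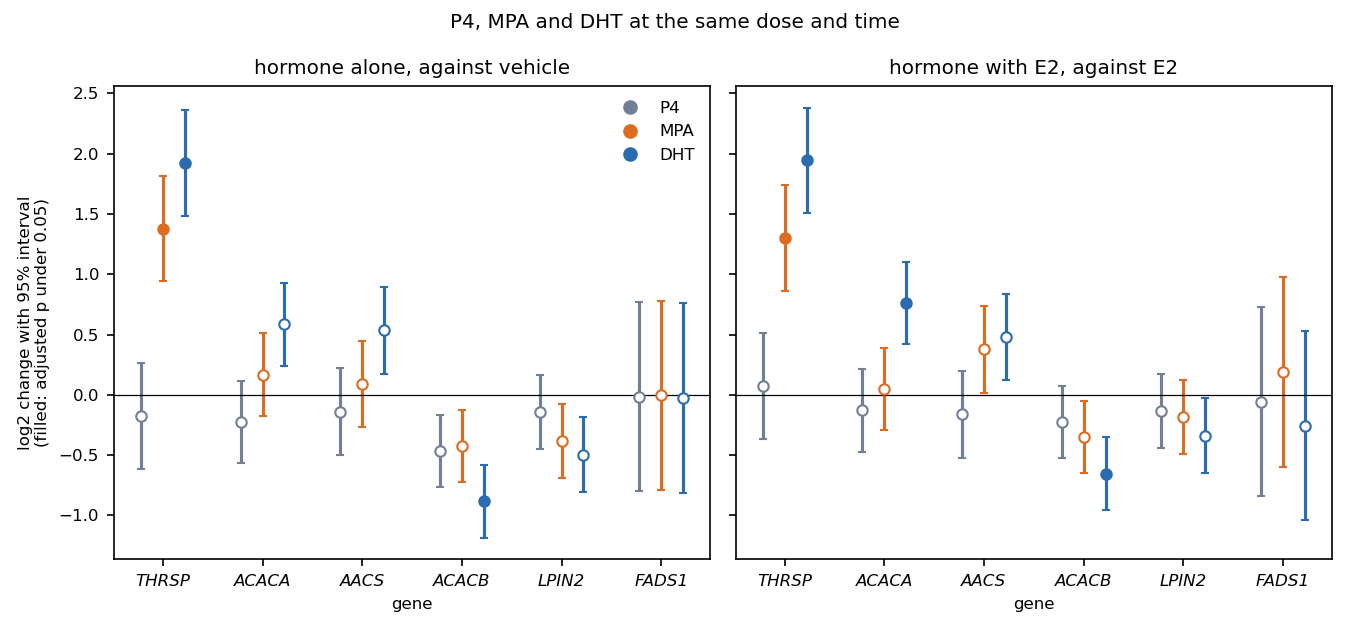
Log2 change with its 95% interval (vertical axis) of 6 genes (horizontal axis) with P4, MPA and DHT, alone against vehicle on the left and with E2 against E2 on the right, 4 arrays a group. Filled points have an adjusted p under 0.05; THRSP lies near 0 with P4, at 1.38 and 1.30 with MPA and at 1.92 and 1.94 with DHT.

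FADS1 had a higher mean in each group that received E2 than in vehicle, and the test was passed in some of them. It encodes the delta-5 desaturase of polyunsaturated fatty acids. Its level was 8.29, 7.33, 7.31 and 7.92 in vehicle, and P4, MPA and DHT alone gave values from 7.01 to 8.03. With E2+P4 it was 8.84, 8.84, 8.94 and 8.98, with E2+MPA 9.07, 8.97, 9.59 and 8.96, and with E2+DHT 8.89, 8.68, 9.05 and 8.18. On the E2 arrays it was 8.79, 10.29, 8.44 and 8.32, where 10.29 is the doubted array. With E2pre+P4 it was 10.05, 8.10, 10.11 and 10.87, where 8.10 is the doubted array. Each doubted array therefore lay in the range of the other group or close to it. These arrays were doubted from 69 genes that differed between the groups, 2 of them members, so the FADS1 values may not be a separate check.

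With all arrays, FADS1 was called with E2+MPA (1.44 ± 0.38, a 2.71-fold rise, adjusted p = 0.0274) and with E2pre+P4 (2.07 ± 0.38, a 4.19-fold rise, adjusted p = 0.000788). The E2+MPA call was lost when vehicle replicate 2 or 3 or E2+MPA replicate 3 or 4 was left out. Without the doubted arrays its SE fell from 0.38 to 0.23, or to 0.24 where a doubted group was compared. The change was then 1.19 with E2+P4 (adjusted p = 0.00133), 1.44 with E2+MPA (adjusted p = 6.8e-05), 0.99 with E2+DHT (adjusted p = 0.00583) and 2.63 with E2pre+P4 (adjusted p = 3.2e-09). It was also called in each cotreatment against its steroid alone, by 1.20 against P4, 1.44 against MPA and 1.01 against DHT, where 1.44%, 1.5% and 1.44% of all genes were called. With E2 alone it was 1.25 with all arrays (adjusted p = 0.132), and without the doubted arrays 0.80 with an interval from 0.30 to 1.30, which was not called (adjusted p = 0.139). Without the doubted arrays, FADS1 with E2pre+P4 exceeded E2+P4 by 1.44 ± 0.24 (adjusted p = 0.000499), where 1.27% of all genes were called. This call depended on leaving out those arrays: with all arrays 0 members were called in that comparison, beside 0.0101% of all genes. With all arrays, 0 members were called in E2+P4 against P4, E2+MPA against MPA and E2+DHT against DHT, where 1.28%, 1.15% and 1.15% of all genes were called and 2, 6 and 5 members passed at an unadjusted p under 0.05, or 6.67%, 20% and 16.7% of the members beside 7.36%, 18.9% and 10.2% of all genes.

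FADS2, the delta-6 desaturase that precedes FADS1 in the same pathway, was detected on only 25 of 36 arrays. It stood at 8.41, 8.21 and 9.01 on the 3 arrays of E2pre+P4 that were not doubted and at 7.94, 6.93, 6.85 and 6.94 in vehicle. The change was called only without the doubted arrays, at 1.38 ± 0.35 (adjusted p = 0.0151). Positions 13 to 24 were higher than the others by 0.57 ± 0.21 for FADS1 and by 0.78 ± 0.23 for FADS2. With that split as a block, the change of FADS1 was 1.29 ± 0.35 with E2+MPA and 2.07 ± 0.35 with E2pre+P4 and both calls were kept.

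The gene starts of FADS1 and FADS2 are shown because both genes were called with E2pre+P4 without the doubted arrays and because these starts lie on opposite strands, 599 bases apart in the RefSeq table. The windows are chr11:61816954-61817253 on the minus strand and chr11:61816154-61816453 on the plus strand of GRCh38.p14, each 5′ to 3′, and capitals mark CCAAT boxes.
FADS1: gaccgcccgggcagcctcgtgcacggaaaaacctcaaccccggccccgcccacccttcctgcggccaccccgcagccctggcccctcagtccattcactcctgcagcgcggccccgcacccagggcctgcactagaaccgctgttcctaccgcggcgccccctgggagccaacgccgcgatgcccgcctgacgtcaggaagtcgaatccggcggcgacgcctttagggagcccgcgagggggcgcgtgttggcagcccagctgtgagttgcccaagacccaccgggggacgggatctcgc
FADS2: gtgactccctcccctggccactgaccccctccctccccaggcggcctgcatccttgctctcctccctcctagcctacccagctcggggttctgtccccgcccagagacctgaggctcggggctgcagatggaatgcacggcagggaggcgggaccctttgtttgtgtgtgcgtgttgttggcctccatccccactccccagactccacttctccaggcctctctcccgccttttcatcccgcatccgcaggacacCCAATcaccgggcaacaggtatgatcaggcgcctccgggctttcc
The FADS1 window held 0 of the 7 motifs searched. The FADS2 window shown is the downstream one of 2 in the table, and it held 1 CCAAT box and a match to the estrogen receptor half-site GGTCA, which 37.4% of all windows hold.

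Among the genes of glycerolipid assembly, LPIN2 was the only member called. It encodes lipin-2, a phosphatidate phosphatase that makes the diacylglycerol from which triglyceride is formed. It stood at 10.11, 9.75, 9.53 and 9.65 in vehicle, and at 9.61, 9.50, 9.58 and 9.78 with P4. It was lower in every cotreatment, with values from 8.96 to 9.36 with E2+P4, 8.65 to 9.38 with E2+MPA, 8.85 to 8.98 with E2+DHT and 8.78 to 9.36 with E2pre+P4. None of these arrays overlapped vehicle. The changes were -0.63 ± 0.15 (adjusted p = 0.0183), -0.68 ± 0.15 (adjusted p = 0.00648), -0.84 ± 0.15 (adjusted p = 0.00044) and -0.72 ± 0.15 (adjusted p = 0.00284), in that order. The last was -0.70 ± 0.16 without the doubted arrays (adjusted p = 0.00516).

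The LPIN2 arrays of E2 (8.91 to 9.48), MPA (9.24 to 9.49) and DHT (9.10 to 9.47) alone also all lay below those of vehicle. The change with MPA was -0.38 and was not called. E2 and DHT alone gave LPIN2 changes of -0.50 ± 0.15 each, which were not called (adjusted p = 0.122 and 0.0836). With sets of 6 consecutive arrays as a block both were called, at -0.62 ± 0.13 (adjusted p = 0.00595) and -0.69 ± 0.13 (adjusted p = 0.00340), and with positions 13 to 24 as a block at -0.59 ± 0.15 each (adjusted p = 0.0186 and 0.0143). The second probe of LPIN2 stayed flat, with changes from 0.01 to 0.20 in the 8 comparisons with vehicle. Averaging the probes ended all 4 calls. Leaving out vehicle replicate 1, the highest LPIN2 array, or E2+P4 replicate 1 or 3 ended the call with E2+P4. The fall thus belongs to the signal of 1 probe, and the transcripts that each probe reads were not analysed here.

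The other genes of this step were not called in any of the 24 comparisons. GPAM, which begins glycerolipid synthesis, AGPAT1, AGPAT2, LPIN1 and DGAT1 were detected on all 36 arrays. DGAT2, which encodes the other triglyceride-forming enzyme, was detected on only 7 arrays and has no usable level. GPAM had a second probe that gave 1.59 with MPA where the probe used gave -0.15, so that its direction depends on the probe. PLIN2, the coat protein of lipid droplets, and FABP5, a fatty acid carrier, were called in 0 comparisons in the fit without a block. With positions 13 to 24 as a block, FABP5 was called with E2+MPA (-0.74 ± 0.21, adjusted p = 0.0286), as it was with sets of 6 arrays (-0.73 ± 0.21, adjusted p = 0.0384), and PLIN2 with E2+DHT (-0.39 ± 0.13, adjusted p = 0.0459). The FABP5 probes disagreed with MPA, at -0.45 and 1.16.

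ACSL1, which activates long-chain fatty acids, was called with E2pre+P4 against vehicle at 2.07 ± 0.58 (adjusted p = 0.0299) and at 2.38 ± 0.63 without the doubted arrays (adjusted p = 0.0198). It is one of the genes that followed the array order. It stood at 6.60, 8.48, 8.93 and 7.14 in vehicle and at 10.60, 8.90, 10.56 and 9.36 with E2pre+P4. The lowest vehicle values, 6.60 and 7.14, were those of replicate 1 and of the vehicle array within positions 13 to 24. Within those positions the difference was 2.22 with 1 array on each side, and within the others 2.02 with 3 on each side. Leaving out vehicle replicate 1 or 4, or E2pre+P4 replicate 1 or 3, ended the call. With positions 13 to 24 as a block ACSL1 was also called with MPA (1.66 ± 0.40), DHT (1.89 ± 0.41), E2+MPA (1.98 ± 0.40) and E2+DHT (1.85 ± 0.39). P4 gave 1.87 ± 0.58 with all arrays, and 0 members were called with P4. ACSL4 was called in 0 comparisons.

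Genes of neighbouring lipid pathways were read from lists of the same kind. Of 17 tested genes of cholesterol synthesis and uptake, 1 was called against vehicle with E2+MPA and 1 with E2+DHT, both times HMGCS1, which makes the precursor of mevalonate (0.58 ± 0.12 and 0.47 ± 0.12). Further on in that pathway, MVK, the mevalonate kinase, was higher with DHT than with P4 (0.80 ± 0.21), and LSS, the lanosterol synthase, higher with E2+P4 than with P4 (0.60 ± 0.14). Of 6 genes that control SREBP processing, INSIG1 rose with E2+MPA (0.59 ± 0.17, adjusted p = 0.0394) and E2+DHT (0.58 ± 0.17, adjusted p = 0.0383). INSIG2 fell with E2+MPA (-0.48 ± 0.14) and E2pre+P4 (-0.51 ± 0.14, and -0.58 ± 0.13 without the doubted arrays, adjusted p = 0.00627). Both encode proteins that hold SREBP in the endoplasmic reticulum. Of 10 genes of lipolysis, droplets and uptake, MGLL, the monoacylglycerol lipase, was called alone and was lower with MPA (-0.64 ± 0.17), DHT (-0.60 ± 0.17), E2+MPA (-0.88 ± 0.17) and E2+DHT (-0.76 ± 0.17).

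Of 19 tested genes of fatty acid oxidation, ECI2, an isomerase for unsaturated chains, rose with DHT (0.58 ± 0.13) and E2+DHT (0.51 ± 0.13), and ACAA1, a peroxisomal thiolase, with DHT (0.61 ± 0.15). With E2pre+P4, ACAA2, a mitochondrial thiolase, was higher (1.40 ± 0.37), and EHHADH, a peroxisomal enzyme of the same pathway, was lower (-0.74 ± 0.19). On the 34 arrays these were 1.43 ± 0.41 (adjusted p = 0.0355) and -0.73 ± 0.21 (adjusted p = 0.0309). PISD, which makes phosphatidylethanolamine in mitochondria, was the only gene called with all arrays of 14 in other glycerolipid and phospholipid synthesis. It rose with MPA (0.80 ± 0.18) and E2+MPA (1.19 ± 0.18), and by 0.80 ± 0.18 with MPA against P4. On the 34 arrays PISD was also called with E2pre+P4 (0.60 ± 0.18, adjusted p = 0.0398), and GPAT3, which begins glycerolipid synthesis in the endoplasmic reticulum, with E2+MPA (-0.74 ± 0.20, adjusted p = 0.0240), with E2pre+P4 (0.72 ± 0.21, adjusted p = 0.0406) and in E2pre+P4 against E2+P4 (0.86 ± 0.21, adjusted p = 0.0316). Of the 6 tested genes of citrate export and NADPH supply outside the member list, IDH1 alone was called, lower with E2pre+P4 (-0.41 ± 0.12), and it lost the call without the doubted arrays (adjusted p = 0.0687).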

How the data were processed

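Total RNA of 36 samples was hybridised to Illumina HumanWG-6 v3 arrays. The authors exported probe signals with BeadStudio and then used variance stabilisation, ComBat and limma; the deposited intensity values used here carry none of these later steps. The deposited detection p-values rose with signal and were therefore read as 1 minus p. A second set of deposited intensity values was a straight-line change of the same signals on each array (largest residual 0.128) and served as an alternative, with column medians from 5.4 to 30.9; the reason for its scaling is not given in the sources used here.

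Signals were corrected and quantile normalised with neqc (limma 3.58.1, R 4.3.3, offset 16). The detection filter (p under 0.01 on 4 or more arrays) kept 15112 of 48803 probes, and 12821 of these had 1 gene symbol. Of all probes, 27578 had 1 symbol, 13 several and 21212 none. The probe with the highest mean stood for its gene. Means of 9 groups were fitted over all 36 arrays, with 24 contrasts and Benjamini-Hochberg adjustment over 9902 genes. Precision is limited by how many arrays there were. The fit was tested on simulated data. Members, gene lists and tests were chosen with earlier results of these data known. Named with values were members called in any comparison, FASN, SCD, ACACA, ACLY and SREBF1 whether called or not, and up to 4 called genes of each other list by absolute change; FADS2, MLXIPL and the genes that followed the array order were added after their values were seen. Alternatives were no background correction, cyclic loess, other detection filters, the mean of the probes, the second set of values, with only the arrays compared, blocks, leaving out the doubted arrays and leaving out each array in turn.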

Additional observations from a re-analysis of the deposited data

Results flagged for a closer look

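Of 108 groups of 4 arrays examined over 12 named members, 5 held an array whose gap to the nearest other array, divided by the range of the group, exceeded Dixon's 95% limit for 4 samples. Chance gives about 1 in 20. The largest share was that of THRSP on E2 replicate 2 (0.972), a doubted array, at 9.69 against 10.82 to 10.85 on the other E2 arrays. SCD on E2 replicate 4 had a share of 0.904, at 15.19 against 14.92 to 14.94. SCD on E2+P4 replicate 4 had a share of 0.865, at 14.95 against 15.002 to 15.011, and SCD on vehicle replicate 1 a share of 0.83, at 14.74 against 14.94 to 14.99. AACS on E2+DHT replicate 2 had a share of 0.832, at 10.72 against 10.89 to 10.93.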

How the results depend on the processing

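The 28 calls of single genes were each recomputed under 19 alternatives, which gave 532 values, of which 463 kept the call, 69 lost it and 0 changed direction. The calls of all genes can move with the setting. A member count given here without the share of all genes is thus not a result about the members. The count of members called moved most as follows, with moves that were small relative to the count left out. With cyclic loess it was 1 with E2, 4 with DHT, 2 with E2+P4 and 8 with E2+DHT against vehicle, 1 in E2+P4 against P4, 1 in E2+MPA against MPA, 4 in E2+DHT against E2+P4 and 1 in E2+DHT against E2+MPA, where no background correction also gave 1. With the mean of the probes it was 0 with E2+P4 and 3 with E2+DHT. With only the arrays compared it was 0 with E2+P4, 1 with E2+MPA, 3 with E2+DHT and 0 with E2pre+P4 against vehicle, 0 in E2+MPA against E2, 1 in E2+DHT against E2, 1 in E2+P4 against P4, 1 in E2+MPA against MPA, 1 in DHT against P4 and 0 in E2+MPA against E2+P4; this setting has fewer arrays to estimate the spread. Without the doubted arrays it was 2 with E2+P4 against vehicle, 2 in E2+MPA against E2, 3 in E2pre+P4 against E2+P4, 1 in each of the 3 cotreatments against its steroid, 2 in E2+MPA against E2+P4 and 2 in E2+DHT against E2+MPA. With sets of 6 consecutive arrays as a block it was 1 with E2 (1.49% of all genes), 5 with E2+MPA (6.42%) and 1 in E2+DHT against E2 (0.818%). With positions 13 to 24 as a block, an alternative chosen after seeing the data, it was 1 with E2 (3.97% of all genes), 2 with MPA (2.61%), 5 with DHT (8.35%), 8 with E2+MPA (9.61%) and 9 with E2+DHT (10.5%) against vehicle, and 1 in E2+P4 against P4 (1.5%); the share of all genes called rose with this block too. The causes were not tested.

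Leaving out 1 array at a time gave 0 to 4 members with P4, 1 to 6 with MPA, 2 to 3 with DHT, 0 to 1 with E2+P4, 2 to 5 with E2+MPA, 3 to 10 with E2+DHT and 3 to 7 with E2pre+P4 against vehicle. It gave 1 to 2 in E2+MPA against E2 (2 without E2+MPA replicate 1), 1 to 3 in E2+DHT against E2 (1 without E2 replicate 3), 0 to 1 in E2pre+P4 against E2+P4 (1 without E2pre+P4 replicate 2), 0 to 1 in E2+MPA against MPA (1 without E2+MPA replicate 1 or 2), 2 to 3 in DHT against P4, 1 to 2 in E2+MPA against E2+P4 (2 without E2+MPA replicate 1) and 0 to 1 in E2+DHT against E2+MPA (1 without E2+DHT replicate 3). With E2+MPA against vehicle the highest count, 5, came without E2+MPA replicate 1 or vehicle replicate 4, and the lowest, 2, without vehicle replicate 2 or E2+MPA replicate 4. The calls of all genes moved with the vehicle array left out too. These ranges are thus not results about the members alone.

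After group means were removed, arrays with the same replicate number had a mean correlation of 0.0169 over 144 pairs, beside -0.0076 over 432 other pairs. Of 36 arrays, 10 had their highest mean correlation with arrays of their own number. Same-number pairs ran from -0.87 to 0.77, and the array-order pattern lies in these values. They therefore do not settle whether the numbers pair the samples. The replicate block gave 5 members with E2+MPA against vehicle and 2 in MPA against P4, counts that have no share of all genes beside them. Genes near background, such as DGAT2, FADS2 and MLXIPL, limit what the arrays can show.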
